A study of Rattus norvegicus with 4 samples.

Results

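The genes described here are those of antioxidant defence and glutathione metabolism, as read in cultured rat testicular peritubular myoid cells. The list was drawn up with earlier results of these data known. A probe belonged when the gene name in the scanner files was that of a listed gene or an older symbol of it. An older symbol counted only where the probe lay on the chromosome of the gene and its transcript was not that of another gene. Of 44 listed genes, 43 had a probe, among 35658 gene names and unnamed transcripts on the array, with 62 of its 41012 probes that are not controls. Gsta4 had none under its name. Names older than the list brought in the Gsta1 probe, which the files call Gsta3, and a Gstp1 probe that they call Gstp2.

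The cells came from the testes of male rats aged 40 days and were kept for 4 days in DMEM/Ham F-12 with defined growth factors. Testosterone cells received the hormone at 1e-07 M in pulses and were set against control cells. The labels give both groups the same treatment text, so the groups rest on the titles and source names. RNA was read on 4 single-colour arrays, 2 for testosterone and 2 for control, each pair numbered 2 and 1 in the titles. The labels do not say what the numbers mark, whether animals were pooled, or whether the pairs came from separate cultures, so the p-values speak of the spread among 4 arrays, and that spread may be technical. Levels are log2 processed signals minus the 75th percentile of the array, so a difference of 1 is 2-fold. Different probes bind with different strength, so levels are compared between arrays for a probe and never between probes.

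The label was checked against markers. Acta2 and Myh11, contractile genes of peritubular myoid cells, had no probe, and Cnn1 stayed at background on every array. The other 7 of the 8 peritubular markers with a probe were well above background on all 4 arrays. The 7 measured macrophage markers were also above background on all 4 arrays, so these cultures held macrophage transcripts. Of the Leydig markers with a probe, 5 of 7 were above background on all 4 arrays, Star and Insl3 among them. So were 4 of 8 for Sertoli cells, 2 of 6 for germ cells and 3 of 6 for endothelium. Transcripts of these lists were thus present too. Wt1 of Sertoli cells, Lhcgr of Leydig cells, Acrv1 of germ cells and Tek of endothelium were above background on no array. Between 63.5% and 68.2% of spots were well above background. Control array 1 had a higher coefficient of variation of replicated spots, 9.52% against 5.25% to 5.53% on the other arrays. On it 103 probes lay at least 3 log2 units below the other 3 arrays, all of them in array columns 57 to 85, where 34.1% of the tested probes sit.

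Superoxide dismutases turn superoxide into hydrogen peroxide. Catalase, the glutathione peroxidases and the peroxiredoxins then remove peroxide, the peroxidases with glutathione and most peroxiredoxins with thioredoxin, and NADPH-dependent reductases restore both carriers. Glutathione transferases couple glutathione to reactive compounds. The transcription factor Nrf2, encoded by Nfe2l2 and held back by Keap1, binds antioxidant response elements near many of these genes, and metallothioneins are induced by metals through metal response elements.

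The promoters of 4 of the genes on which the results turn are shown because those elements lie in this window in some of them and not in others. Each runs from 250 bases before to 50 bases after a RefSeq start (build GRCr8), 5′ to 3′ along the gene. Capitals mark matches on either strand to TGACNNNGC, the core of the antioxidant response element, or to TGCGCNC or TGCACNC, the core of the metal response element.
Sod2, chr1:50050119-50050418, minus strand: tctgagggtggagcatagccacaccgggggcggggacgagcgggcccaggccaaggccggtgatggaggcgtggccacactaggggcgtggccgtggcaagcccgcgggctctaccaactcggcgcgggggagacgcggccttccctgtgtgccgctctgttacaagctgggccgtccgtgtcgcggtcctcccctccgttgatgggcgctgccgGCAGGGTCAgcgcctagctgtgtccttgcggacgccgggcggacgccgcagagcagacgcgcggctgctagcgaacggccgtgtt
Txnrd1, second listed start, chr7:22755855-22756154, minus strand: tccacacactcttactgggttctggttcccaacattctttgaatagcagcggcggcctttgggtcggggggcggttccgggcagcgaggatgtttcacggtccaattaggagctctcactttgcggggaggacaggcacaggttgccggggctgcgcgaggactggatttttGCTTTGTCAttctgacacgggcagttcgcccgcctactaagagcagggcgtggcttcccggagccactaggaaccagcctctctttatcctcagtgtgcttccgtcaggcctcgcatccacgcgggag
Gstm1, chr2:198343334-198343633, minus strand: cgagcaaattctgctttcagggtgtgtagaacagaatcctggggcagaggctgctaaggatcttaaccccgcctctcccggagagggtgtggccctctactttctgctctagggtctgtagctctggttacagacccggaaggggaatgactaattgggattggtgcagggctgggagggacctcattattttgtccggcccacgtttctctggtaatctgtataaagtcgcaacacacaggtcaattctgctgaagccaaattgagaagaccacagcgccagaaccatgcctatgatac
Mt1 (the array's Mt1a), chr19:10832926-10833225, minus strand: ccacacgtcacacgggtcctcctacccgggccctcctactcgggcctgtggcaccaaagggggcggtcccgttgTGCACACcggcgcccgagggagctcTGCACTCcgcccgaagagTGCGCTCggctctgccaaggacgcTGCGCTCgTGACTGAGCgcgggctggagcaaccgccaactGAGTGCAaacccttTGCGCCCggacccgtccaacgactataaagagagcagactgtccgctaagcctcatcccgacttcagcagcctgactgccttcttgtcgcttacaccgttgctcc
The Sod2 window held 1 antioxidant core, on the other strand 35 bases before the start, and the Txnrd1 window held 1, also on the other strand, 78 bases before. The window at the first listed Txnrd1 start held neither motif, and neither did that of Gstm1. In the Mt1 window 6 metal cores and 1 antioxidant core were found, none overlapping another. Counting the first listed start of each gene, the antioxidant core was present in 12 of the 34 listed genes with a promoter (35.3%), against 12.1% of 33469 rat promoters of this length. Metal cores were present in 9 of 34 (26.5%), against 24.2%. The first 4 letters of the antioxidant core also begin the AP-1 motif, and a match is a description of letters only.

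Not every gene could be measured. Signal was saturated on at least 1 array for 14 probes of 8 genes: Sod1, Txn1, Gsta1, Gstp1, Prdx1, Ftl1, and 1 probe each of Mt1a and Fth1. A saturated spot stands at the ceiling of the scanner, so its scaled difference follows the 75th percentiles of the arrays. The 262 probes saturated on every array had a median difference of 0.26 between numbers 2 and 1, positive for 260. No fold is given for such probes, and for Sod1, the cytosolic superoxide dismutase, the scaled levels were 7.54 and 7.02 on testosterone arrays 2 and 1 and 7.31 and 7.10 on control arrays 2 and 1. At the other end, Gclm, the modifier subunit of the enzyme that begins glutathione synthesis, was well above background on 0 of 4 arrays. Gpx2, an epithelial glutathione peroxidase, was above background on control array 1 alone, by 1 of its 2 probes. A second probe of Srxn1, sulfiredoxin, was above background on testosterone array 2 alone. These 4 probes were not tested.

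In all, 58 probes of 41 genes were tested. Of these, 40 probes of 35 genes were both unsaturated and not opposite in orientation to the RefSeq probes of their gene. That rule, called gene orientation for members, cannot flag a gene with a single RefSeq probe. The catalase probe, counted among the 40, has plus orientation in the files, while GRCr8 puts the gene on the minus strand. The group counts below are over those 40, of which 25 lie outside array columns 57 to 85. Those inside include probes of Sod3, Gpx1, Gstm1, Gstm2, Gstt2 and Mgst1. The other 4 tested probes were designed from expressed sequence tags whose orientation in the files is opposite to the gene, for Txnrd1, Gstm5 and Txn1. For 60 of the 62 member probes the files place the probe on the chromosome of the gene in GRCr8. The exceptions are the Gpx1 probes, which the files put on chromosome 16 and the reference gene table on 8. The unsaturated Fth1 probe lies on chromosome 1 at 24186076 to 24186135 (rn4), far from the other Fth1 probe at 212431855 to 212431914. For both genes a gene and a copy elsewhere cannot be told apart.

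**Figure D1:**
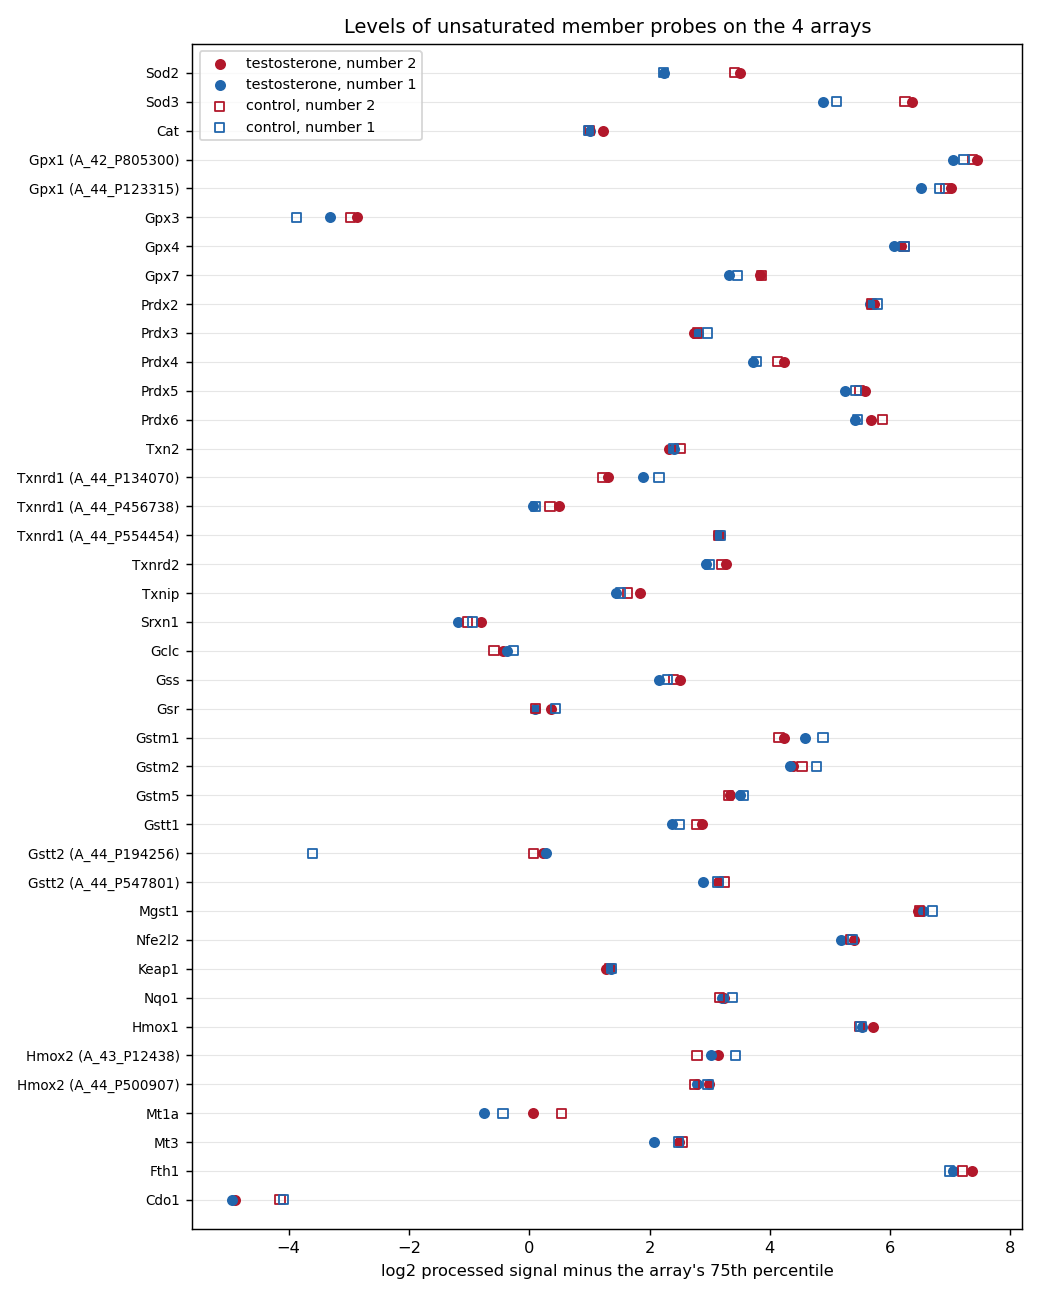
Levels of the 40 unsaturated probes in gene orientation on each of the 4 arrays (log2 processed signal minus the 75th percentile of the array). Circles are testosterone and squares control, red number 2 and blue number 1. Points of 1 number lie together for Sod2 and Sod3, and points of 1 treatment lie together for Cdo1.

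Testosterone against control asks which of these genes respond to the hormone. None passed the test: limma called 0 of 25914 probes over the whole array (0%) and 0 members, and 208 probes (0.803%) had an unadjusted p under 0.05, Cdo1 the only member among them. Of the 40 member probes, 12 had a positive and 28 a negative difference, with a median of -0.04 against -0.01 over all unsaturated probes tested. That balance turned with the arrays kept: 25 were positive and 15 negative without testosterone array 1 (median 0.06), and 9 and 31 without testosterone array 2 (median -0.16). With 2 arrays in a group an exact permutation test cannot give a p under 0.333, so none is reported for single genes.

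Cdo1 encodes cysteine dioxygenase, which draws cysteine towards taurine and so away from glutathione. Its probe (rn4 chromosome 18, 40921357 to 40921416) had levels of -4.89 and -4.94 on testosterone arrays 2 and 1, against -4.14 and -4.09 on control arrays 2 and 1. Both testosterone values lay below both control values, and the arrays of each group were close to each other. The means were -4.92 ± 0.04 with testosterone and -4.12 ± 0.04 in control (SD, n = 2 each), a difference of -0.80 with a 95% interval of -1.28 to -0.31. The unadjusted p was 0.0092 and the adjusted p 1.00 in limma, so the difference did not pass. After normexp background correction with quantile normalization it was -0.21.

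Groups that did not overlap were found for 3 of the 40 member probes higher with testosterone, against 6.15% of all tested probes and 6.23% of the unsaturated ones, and for 3 lower, against 8.97% and 9.08%. On the higher side were catalase, the peroxisomal enzyme that splits hydrogen peroxide, with a difference of 0.12, and Hmox1, the inducible haem oxygenase, also with 0.12. Hmox1 had levels of 5.72 and 5.53 on testosterone arrays 2 and 1, against 5.48 and 5.52 on control arrays 2 and 1. The third was a probe of Gstt2, a theta-class transferase, at 0.22 and 0.28 on testosterone arrays 2 and 1 and at 0.07 and -3.60 on control arrays 2 and 1. Its difference of 2.02 rests on control array 1, where it lay in the area of dropped signals. The other Gstt2 probe, in the same columns but at 3.24 and 3.14 on control arrays 2 and 1, had a difference of -0.17. The Gstt2 probe at -3.60 on control array 1 was also the only member apart by at least 2-fold with testosterone, where 0.548% of all tested probes were higher and 0.147% lower. Lower with testosterone and not overlapping were Gstm2, a mu-class transferase, at -0.29, Gpx4, which reduces lipid peroxides in membranes, at -0.11, and Cdo1. Among the probes of opposite orientation, that of Txn1 was at -3.64 and -3.88 on testosterone arrays 2 and 1, against -4.27 and -4.22 on control arrays 2 and 1, a difference of 0.48 that did not pass. This Txn1 probe also lies within the affected columns.

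**Figure D2:**
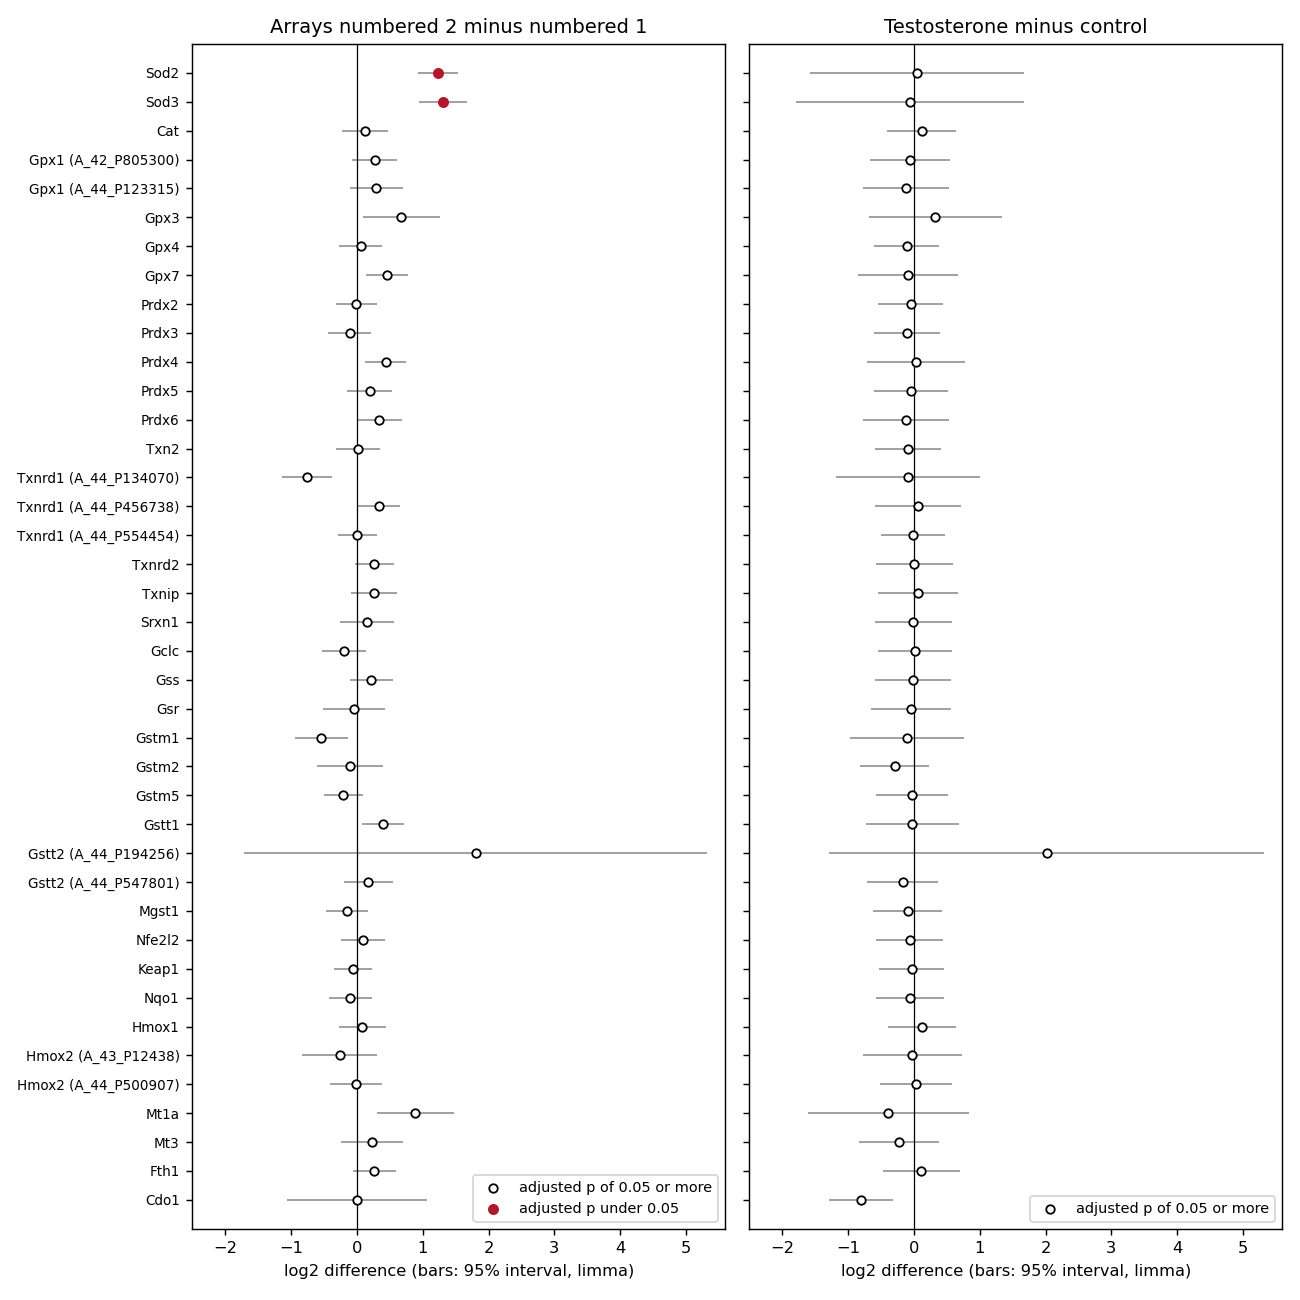
Log2 differences of the 40 member probes with 95% intervals from limma, arrays numbered 2 minus numbered 1 on the left and testosterone minus control on the right. Filled red points have an adjusted p under 0.05: Sod2 at 1.23 and Sod3 at 1.31, both in the comparison of numbers.

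Arrays numbered 2 against arrays numbered 1 separated the members far more. Limma called 1507 of 26742 probes (5.64%), 1118 higher (4.18%) and 389 lower (1.45%) on number 2. Among the 40 member probes it called 2 higher, which is 5.0%, and 0 lower, while 11 of 40 (27.5%) had an unadjusted p under 0.05 against 31.1% of all tested probes. Groups apart were 18 higher and 7 lower, 45.0% and 17.5%, against 39.0% and 26.2% of all tested probes and 38.4% and 26.6% of the unsaturated ones. The members as a set therefore lay close to the background of the array. Their differences were positive for 26 and negative for 14, with a median of 0.13 against 0.07 over all unsaturated probes tested. That balance depended on scaling: 21 were positive with quantile normalization and 20 with normexp and quantile normalization. Germ cell markers also differed between numbers, with 5 of 5 tested higher on number 2 and 4 of them called. Of those called, Sycp3 was above background on 2 arrays only, those numbered 2. It thus entered the test only through the group where it was high. The marker not called, Ddx4, was higher only through control array 1, where its probe lay in the area of dropped signals. It was at -3.83 and -2.56 on testosterone arrays 2 and 1 and at -3.96 and -7.59 on control arrays 2 and 1. The summed linear level of the 6 measured germ cell markers was 4.56 and 0.453 on testosterone arrays 2 and 1, and 4.62 and 0.418 on control arrays 2 and 1. Macrophage markers summed to 122 and 154 on testosterone arrays 2 and 1 and to 127 and 173 on control arrays 2 and 1. Of these, 3 of 7, Aif1, Cd163 and Mrc1, were higher on number 2, and 0 were called. Such sums follow the brightest probes: Cd68 and Tyrobp for macrophages, and on number 2 Tnp1 and Prm1 for germ cells. In each of the other marker lists 1 gene was called: Tagln of peritubular myoid cells at 1.75, Kdr of endothelium at 1.92, Cldn11 of Sertoli cells at -1.16 and Cyp11a1 of Leydig cells at -0.93. Tested markers were higher on number 2 for 6 of 7 in the peritubular list, 3 of 4 in the endothelial and Sertoli lists and 1 of 6 in the Leydig list. Pecam1 of endothelium, higher on number 2, and Hsd17b3 of Leydig cells, higher on number 1, were above background on 2 arrays only. Each entered only through the number where it was high. Markers not above background on both arrays of either number are left out, so the detection filter shapes these counts. The part of such cells in the results on numbers was not tested, and more cells of a type and more RNA per cell cannot be told apart.

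Both superoxide dismutases that could be measured rose on number 2. Sod2, the mitochondrial manganese enzyme, had levels of 3.51 and 2.24 on testosterone arrays 2 and 1 and of 3.41 and 2.23 on control arrays 2 and 1. Each number 2 array stood over a log2 unit above each number 1 array, whatever the treatment. The mean was 3.46 ± 0.07 on number 2 and 2.23 ± 0.00 on number 1 (SD, n = 2 each), a difference of 1.23 (95% interval 0.93 to 1.53), 2.35-fold, with an adjusted p of 0.020 in limma. Its probe lies on rn4 chromosome 1, 41862972 to 41863005, and carries the name of the RefSeq mRNA, but the probe sequence was not read. Testosterone and control differed by 0.05, with an interval of -1.57 to 1.68. The treatment fit had no term for number, so the width of that interval includes the spread between numbers. Testosterone minus control was 0.10 within number 2 and 0.01 within number 1.

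Sod3, the secreted copper and zinc enzyme of the extracellular matrix, had levels of 6.36 and 4.88 on testosterone arrays 2 and 1 and of 6.25 and 5.11 on control arrays 2 and 1. Its groups by number were again wide apart. The mean was 6.30 ± 0.08 on number 2 and 4.999 ± 0.16 on number 1 (SD, n = 2 each), a difference of 1.31 (0.94 to 1.67), 2.47-fold, with an adjusted p of 0.026 in limma. The probe (rn4 chromosome 14, 63381466 to 63381525) lies within the array columns in which control array 1 dropped signals. Within the testosterone pair alone number 2 minus number 1 was 1.48, and within the control pair 1.14. Sod2 and Sod3 were the only members with groups apart by at least 2-fold in this direction, where 6.20% of all tested probes were, and no member was so far apart in the other, where 1.09% were. Both calls were lost with treatment as a covariate, at adjusted p values of 0.063 for Sod2 and 0.068 for Sod3, and without a detection filter, at 0.084 and 0.091. Leaving out an array gave 0.052 to 0.155 for Sod2 and 0.047 to 0.178 for Sod3, under 0.05 only for Sod3 without control array 1.

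**Figure D3:**
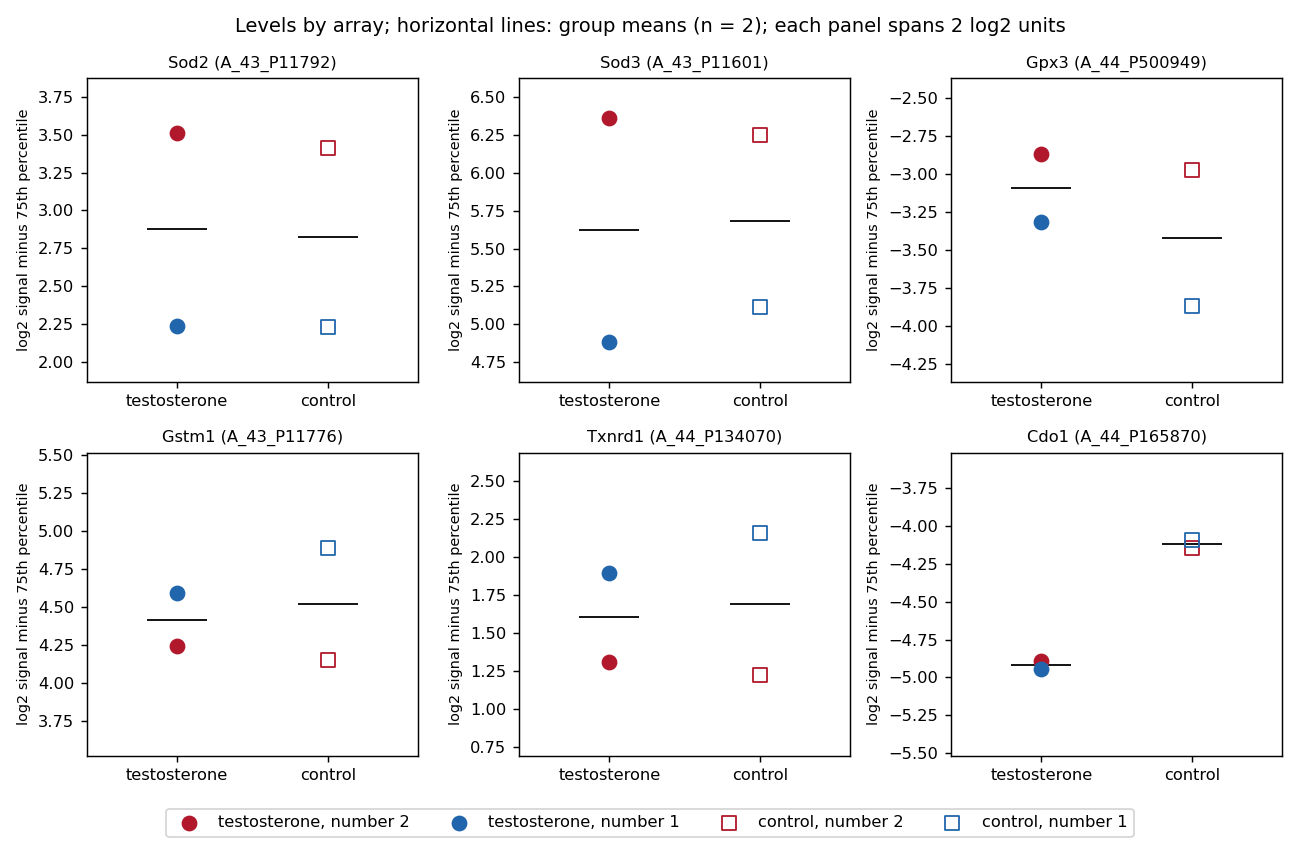
Levels of 6 members by array (log2 signal minus the 75th percentile), testosterone left of control in each panel, red number 2 and blue number 1. Every panel spans 2 log2 units: Sod2, Sod3 and Gpx3 are higher on number 2 in both groups, Gstm1 and Txnrd1 lower, and Cdo1 parts by treatment.

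Catalase and the glutathione peroxidases gave 6 probes of 5 genes, all 6 with a positive number difference (median 0.28) and 0 called; with quantile normalization 5 were positive, and with normexp as well 4, Gpx4 being among those turned. Gpx3, the secreted plasma peroxidase, was at -2.87 and -3.31 on testosterone arrays 2 and 1 and at -2.97 and -3.87 on control arrays 2 and 1. Its difference was 0.67 (0.09 to 1.26), with an adjusted p of 0.128 in limma. Gpx7, a peroxidase of the endoplasmic reticulum, was at 3.83 and 3.32 on testosterone arrays 2 and 1 and at 3.86 and 3.46 on control arrays 2 and 1, a difference of 0.46. For Gpx1, the cytosolic selenium enzyme, the probe at 1046407 to 1046466 of rn4 chromosome 16 had levels of 7.44 and 7.04 on testosterone arrays 2 and 1 and of 7.36 and 7.23 on control arrays 2 and 1. The difference was 0.27 there and 0.29 at the other probe, but normexp with quantile normalization gave -0.05 for the probe above.

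Peroxiredoxins and sulfiredoxin, the enzyme that repairs them, gave 6 probes of 6 genes, 4 positive and 2 negative by number (3 and 3 with normexp), with 0 called. Prdx4, the peroxiredoxin of the secretory pathway, was at 4.24 and 3.72 on testosterone arrays 2 and 1 and at 4.13 and 3.77 on control arrays 2 and 1, a difference of 0.44 (0.13 to 0.75). Prdx6, which uses glutathione, had 5.69 and 5.42 on testosterone arrays 2 and 1 and 5.87 and 5.46 on control arrays 2 and 1, a difference of 0.34. Both sets of arrays were apart, and neither adjusted p passed (0.094 and 0.155 in limma). The cytosolic Prdx2 had 5.73 and 5.66 on testosterone arrays 2 and 1, against 5.69 and 5.79 on control arrays 2 and 1, with overlapping numbers and a difference of -0.01. Mitochondrial Prdx3 gave -0.11, Prdx5 gave 0.20 and Srxn1 gave 0.15.

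The thioredoxin system gave 6 probes of 4 genes, 5 positive and 1 negative by number (3 and 3 with quantile normalization), with 0 called. Here the probes of Txnrd1, the cytosolic selenium reductase of thioredoxin, did not move alike. The probe nearest the 3′ end (rn4 chromosome 7, 23055528 to 23055561) had levels of 1.31 and 1.90 on testosterone arrays 2 and 1 and of 1.22 and 2.16 on control arrays 2 and 1. Both number 2 arrays lay below both number 1 arrays. The difference was -0.76 (-1.14 to -0.38), with an adjusted p of 0.057 in limma. It passed with normexp and quantile normalization, at 0.016, and when all 4 arrays had to be above background, at 0.041. This probe too lies within the columns affected on control array 1, and its number difference was -0.59 within the testosterone pair and -0.93 within the control pair.

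A second Txnrd1 probe, at 23056700 to 23056759, gave 3.18 and 3.13 on testosterone arrays 2 and 1 and 3.15 and 3.18 on control arrays 2 and 1, a difference of 0.01. The third, spanning 23073062 to 23074940 towards the 5′ end, gave 0.49 and 0.07 on testosterone arrays 2 and 1 and 0.35 and 0.10 on control arrays 2 and 1, a difference of 0.34. So the 3 probes in gene orientation included a negative, a near-zero and a positive difference. The probe of opposite orientation, at 23055604 to 23055663 beside the 3′ probe, stood at -1.76 and -2.61 on testosterone arrays 2 and 1 and at -1.95 and -3.01 on control arrays 2 and 1. Its difference was 0.95, against the sign of its neighbour, with an adjusted p of 0.059 in limma. It passed with normexp and quantile normalization, at 0.044, with detection on all 4 arrays, at 0.042, and without the affected columns, at 0.040. The files do not say which strand is transcribed there. Txnrd2, the mitochondrial reductase, gave 0.26, Txnip, which binds and inhibits thioredoxin, 0.26, and Txn2, mitochondrial thioredoxin, 0.01.

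**Figure D4:**
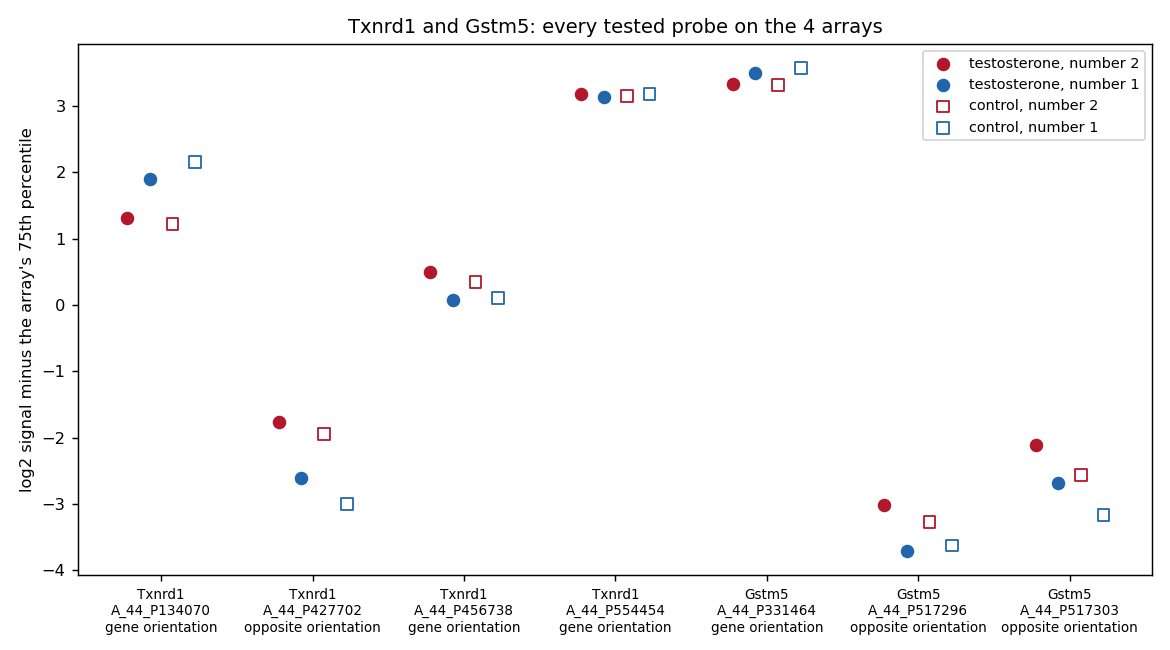
Every tested probe of Txnrd1 and Gstm5 on the 4 arrays (log2 signal minus the 75th percentile), testosterone before control and number 2 before number 1 within each probe. The 3 probes of opposite orientation are higher on number 2, while the Gstm5 probe and the 3′ Txnrd1 probe in gene orientation are lower.

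Glutathione synthesis and recycling showed small differences: 3 probes of 3 genes, 1 positive and 2 negative by number, 0 called. Gss, which completes glutathione, had 2.51 and 2.16 on testosterone arrays 2 and 1 and 2.40 and 2.30 on control arrays 2 and 1, a difference of 0.22. Gclc, the catalytic subunit of the enzyme that begins synthesis, gave -0.19, and Gsr, glutathione reductase, -0.04.

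Of the glutathione transferases 7 probes of 6 genes counted, 3 positive and 4 negative by number (4 and 3 with normexp), with 0 called. Gstm1, a mu-class enzyme, was at 4.24 and 4.59 on testosterone arrays 2 and 1 and at 4.15 and 4.89 on control arrays 2 and 1. Both number 2 arrays lay below both number 1 arrays. The difference was -0.54 (-0.94 to -0.14), with an adjusted p of 0.101 in limma, and 0.037 with normexp and quantile normalization. The probe (rn4 chromosome 2, 203575796 to 203575855) is within the affected columns of control array 1, and the difference was -0.35 within the testosterone pair. Gstm5 gave -0.21 and Gstm2 -0.10, while Gstm7, a mu-class gene outside the list that the files call Gstm3, gave -0.68. Mu-class genes are close in sequence, so a probe of any of them may take signal from another.

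Both Gstm5 probes of opposite orientation were positive by number. The probe with an interval above 0 had -3.01 and -3.71 on testosterone arrays 2 and 1 and -3.28 and -3.63 on control arrays 2 and 1, a difference of 0.53, and the other gave 0.59. The theta-class Gstt1 was at 2.87 and 2.37 on testosterone arrays 2 and 1 and at 2.79 and 2.50 on control arrays 2 and 1, a difference of 0.39. Mgst1, the microsomal transferase, was at 6.46 and 6.55 on testosterone arrays 2 and 1 and at 6.49 and 6.70 on control arrays 2 and 1, a difference of -0.15.

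Nrf2, its inhibitor and the genes grouped with them had 0 calls in either comparison. Of 6 probes of 5 genes, 2 were positive and 4 negative by number, and likewise by treatment. Other groups hold genes with an antioxidant core too, such as Txnrd1 and Sod2, so these counts do not describe the whole pathway. With quantile normalization, with or without normexp, all 6 were negative by number. By number, Nfe2l2 gave 0.09, Keap1 -0.06, the quinone reductase Nqo1 -0.10 and Hmox1 0.08. The constitutive haem oxygenase Hmox2 gave -0.26 and -0.02 at its 2 probes, the first below the 10th percentile of all unsaturated probes at its level. That first probe gave 0.12 within the testosterone pair and -0.64 within the control pair, and its groups by number overlapped. The 95% interval for Nfe2l2 ran from -0.24 to 0.42 by number and from -0.58 to 0.45 by treatment. Both intervals include 0, and with 4 arrays neither a rise nor a fall within these bounds could be excluded.

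The metal and iron binding genes had 3 unsaturated probes, all positive by number under each scaling, with 0 called. Metallothionein Mt1a was saturated at 1 probe, while its unsaturated probe (rn4 chromosome 19, 11262268 to 11262327) had 0.07 and -0.75 on testosterone arrays 2 and 1 and 0.53 and -0.44 on control arrays 2 and 1. The number 2 arrays were higher by 0.89 (0.31 to 1.47), with an adjusted p of 0.083 in limma. By treatment this probe gave -0.39, with groups that overlapped. Mt3, a metallothionein best known from brain, gave 0.23. The unsaturated probe of the ferritin heavy chain gene Fth1 was at 7.37 and 7.05 on testosterone arrays 2 and 1 and at 7.20 and 6.99 on control arrays 2 and 1, a difference of 0.26 by number. That difference fell to 0.01 with normexp and quantile normalization, and to 0.003 at the lowest among alternatives that kept every array. Its positive sign under each scaling therefore includes values near 0. Cdo1 gave -0.00 by number, with an interval of -1.06 to 1.06 whose width includes the spread between its treatment groups.

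**Figure D5:**
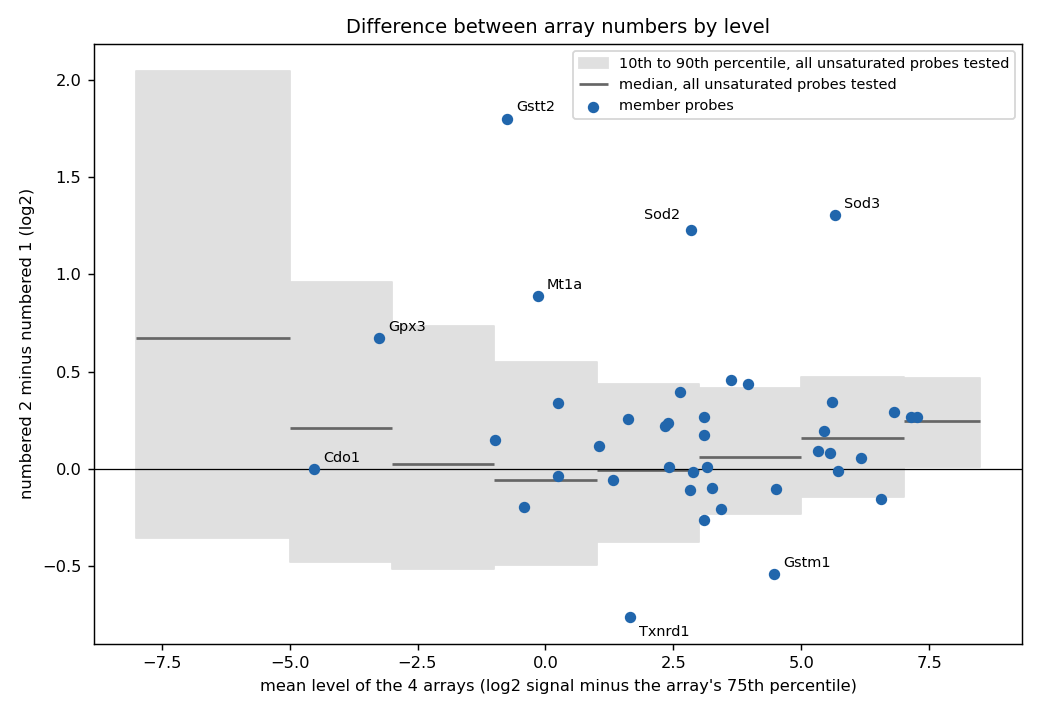
Difference between arrays numbered 2 and 1 (log2) against the mean level of the 4 arrays, for the 40 member probes (points) and for all unsaturated probes tested (lines, medians; grey bands, 10th to 90th percentile within a level range). Above the band of their level lie 6 probes, of Sod2, Sod3, Mt1a, Gstt2, Gpx7 and Prdx4, and below it 4, of Gstm1, Txnrd1, Hmox2 and Mgst1. The Gstt2 probe lies above through the dropped signal of control array 1, with a difference of -0.06 within the testosterone pair. The Hmox2 probe lies below through the control pair, at -0.64 there and 0.12 within the testosterone pair.

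The number difference varied with level over the whole array. Its median over all unsaturated probes tested was 0.67 at levels below -5, was -0.06 at levels of -1 to 1 and was 0.24 above 7. The differences of Gpx1 and Fth1 lay near that last median, and Sod2 and Sod3 lay above the 90th percentile of their ranges, 0.43 and 0.47. The share of calls that were higher on number 2 was 74.2% with the 75th percentile, 60.5% with quantile normalization and 45.1% with normexp and quantile normalization.

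Other genes of the same pathways, 72 named in a separate list, were set beside the members. A probe was found for 65. By number, 74 probes of 52 genes were tested that were unsaturated and not opposite to the strand of the gene in GRCr8. Of these 37 were positive and 37 negative, 4 rose and 0 fell, which is 5.41% called higher against 4.18% of all tested probes. Without a detection filter, without testosterone array 2 or without control array 2 no probe of the array was called, and so none of these 4. Ggt1, which breaks down extracellular glutathione, was at -0.13 and -2.01 on testosterone arrays 2 and 1 and at -0.39 and -1.93 on control arrays 2 and 1, a rise of 1.71 (adjusted p 0.018 in limma). Slc7a11, the transport subunit that brings in cystine for glutathione, was at -3.28 and -5.39 on testosterone arrays 2 and 1 and at -3.05 and -4.74 on control arrays 2 and 1, above background on 3 arrays, with a rise of 1.90 (adjusted p 0.038). Glutaredoxin, Glrx, rose by 0.75 (0.046) and the microsomal transferase Mgst2, at a probe within the affected columns, by 0.76 (0.048). By treatment 75 probes of 53 of these genes were tested, 29 positive and 46 negative, with 0 called.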

How the data were processed

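RNA of 2 testosterone and 2 control samples was read on 4 Agilent arrays of 1 slide and 1 scan. The deposited scanner files hold spot intensity on a linear scale; the processed signal comes from Feature Extraction 11.5.1.1, per the file headers, or 10.5, per the submitters' processing notes. The authors' deposited table holds log2 values, which were those signals on the log2 scale less 8.38 and 8.79 on testosterone arrays 2 and 1 and less 8.55 and 8.63 on control arrays 2 and 1. Probe positions are in rn4, per the file headers.

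The values used were log2 processed signals minus the 75th percentile of each array over spots that are not controls. Spots of a probe were averaged, saturated ones included and outlier-flagged ones not. To be tested, a probe had to be well above background on both arrays of either group. The fit on probes used limma 3.58.1 (R 4.3.3) with lmFit and eBayes and no covariates, was 2-sided, adjusted by Benjamini-Hochberg over all probes and called at an adjusted p under 0.05; it was tested on simulated data. A second rule took groups apart by at least 2-fold.

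Names came from the files, updated through the GRCr8 gene table by accession (10835 probes), symbol (5201) or older symbol (3464); 21512 kept the file's name. Promoters are RefSeq's. Of RefSeq probes with a strand, 95.8% had the orientation of the gene. Members, pathway list and markers were chosen with earlier results of these data known. Values per array are given for members called, apart by at least 2-fold, with an interval excluding 0 or brightest of their role, and of the other pathway genes for those called. The alternatives tried were other background corrections, normalizations, filters and probe rules, the authors' table, the replicate block and leaving out the affected columns or each array.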

Additional observations from a re-analysis of the deposited data

Results flagged for a closer look

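For 13 of the 40 member probes number 2 minus number 1 had opposite signs with testosterone and in control, and for 3 of them the values lay at least 0.5 log2 units apart. The difference between treatments was not tested, since 4 arrays leave no spread for it. For Gsr, number 2 minus number 1 was 0.25 with testosterone and -0.33 in control. An Hmox2 probe gave 0.12 with testosterone and -0.64 in control, and the other Hmox2 probe gave 0.20 and -0.23. A Gstt2 probe gave -0.062 with testosterone and 3.67 in control, and it lies in the area where control array 1 dropped signals.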

How the results depend on the processing

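By treatment, 0 probes and 0 members were called under all 9 alternatives that kept every array. With an array left out, 0 to 51 probes were called, the 51 without control array 2 (48 higher and 3 lower), and 0 members. Probes apart by at least 2-fold numbered 180 as reported, 24 with normexp and quantile normalization, 897 without a detection filter, 39 with detection on all 4 arrays, 44 without the affected columns, 464 at 1.5-fold and 584 to 1773 with an array left out.

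By number, 1507 probes were called as reported, 2756 with normexp and quantile normalization, 0 without a detection filter, 353 with treatment as a covariate and 0 to 1020 with an array left out; the 0 arose without testosterone array 2 or control array 2, and 753 were called without control array 1. The unadjusted count in the reported fit was 8306. Members called were 2 as reported, 5 with normexp (Gstm1 and the 3′ Txnrd1 probe lower, the opposite Txnrd1 probe higher, beside Sod2 and Sod3), 4 with detection on all 4 arrays, 0 without a detection filter, 0 with treatment as a covariate, and 0 to 2 with an array left out, 0 without testosterone array 2 or control array 2, Sod3 alone without control array 1, and without testosterone array 1 not Sod2 and Sod3 but a Gpx2 probe lower and the Gstt2 probe with the dropped signal higher. Probes apart by at least 2-fold numbered 1950, then 325 with normexp, 3461 without a detection filter, 1016 with detection on all 4 arrays, 1128 without the affected columns, 5522 at 1.5-fold and 1943 to 3622 with an array left out. The cause of these changes was not tested.

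Treatment as a covariate is the same model as the replicate block. With the replicate block 0 probes were called by treatment, and 740 had an unadjusted p under 0.05 in limma, against 208. Among all 58 tested member probes, 2 higher and 1 lower with testosterone had such a p. Deviations of same-numbered arrays from their group means correlated at 0.47 across 25880 probes; no label says that a number marks a shared culture. Quantile normalization moved the median number difference of all probes to -0.03, against 0.08. For the member probes picked by the rule for values per array, 55 of 570 values under alternatives changed sign. Most of these probes were picked because an interval excluded 0. They include a saturated Sod1 probe and probes of opposite orientation, so the share does not describe the members in general. The slide as a block was not run, since all arrays share 1 slide. The number of arrays, and signal near background for Cdo1, Gpx3 and Slc7a11, limit the precision.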
